A study of Mus musculus with 48 samples.

Results

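The livers of mice given the gapmer antisense oligonucleotide LX-A2003 were compared with the livers of mice given PBS, 24 h (day 1) after the first administration, over all genes. The comparison holds 8 of the 48 libraries of the series, 4 from LX-A2003 livers and 4 from PBS livers, and 12672 of the 23930 genes listed passed the filter on low counts and were tested. The series also holds the oligonucleotides LX-A1656 and LX-A3928 and the times 72 h (day 3) and 168 h (day 7), with 4 libraries in each of its 12 groups. All 3 oligonucleotides are directed against Scarb1. The sources used here do not state the dose, the route, the oligonucleotide sequences, or the strain, sex, age or genotype of the mice, nor the hour of tissue collection. The labels do not tie replicates to animals, and p-values below therefore cover the spread between libraries, whatever its source.

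A gapmer is a short DNA strand with chemically modified ends. It pairs with a transcript in the cell, and RNase H, an enzyme that cuts RNA within an RNA-DNA hybrid, then cleaves that transcript. In the liver, oligonucleotides enter hepatocytes and the sinusoidal endothelial cells that line the blood channels, where the scavenger receptors stabilin-1 and stabilin-2 take part in their uptake. Scarb1 codes for the receptor through which hepatocytes take up cholesterol from HDL.

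Library totals were 10274766 to 11828165 counts in LX-A2003 livers and 8381297 to 11472905 in PBS livers, against 8140065 to 17191129 over the series. Between 14641 and 14972 genes were detected in LX-A2003 livers and between 13807 and 14364 in PBS livers. Hepatocyte markers had their summed level between 87200 and 99300 CPM (counts scaled to a common library size) with LX-A2003 and between 83100 and 98800 CPM with PBS, and all 11 listed were detected in both groups. The replicates of LX-A2003 were not equally alike. Replicates 3 and 4 differed least, with a chi-square per degree of freedom of 5.75, replicates 1 and 2 stood at 15.3, and the pairs across these were at 18.1 to 23.3, while PBS pairs ran from 6.74 to 17.6. Every pair differed by more than the sampling noise of independent reads. PCR reads are not independent molecules, so repeat libraries of 1 animal could do so too. These values therefore cannot show that the libraries are from separate animals. All 8 libraries were counted as separate samples without that being shown.

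At 24 h, 265 genes were called changed, which is 2.09% of the genes tested, at an adjusted p under 0.05 in edgeR's quasi-likelihood test. Of these, 119 were higher with LX-A2003 (0.939% of the genes tested) and 146 were lower (1.15%). With a log2 fold change of at least 1 in size, 58 were higher and 60 lower (0.458% and 0.473%). The median log2 fold change over all genes tested was 0.014. The 4 LX-A2003 libraries lay beyond all 4 PBS libraries in 245 of the 265 genes, against 12.6% of all genes tested, of which 6.18% lay above and 6.43% below. The count depended on single libraries: it was 145 without LX-A2003 replicate 3, 149 without LX-A2003 replicate 4, 135 without PBS replicate 1, 162 without PBS replicate 2 and 174 without PBS replicate 4. It also depended on the PBS livers used. Set against the PBS livers of 72 h instead, a comparison added after the data were seen, the same LX-A2003 libraries gave 10 genes higher and 57 lower, which is 0.0789% and 0.45% of the genes tested, and these held 7 of the 119 higher genes (5.88%) and 47 of the 146 lower genes (32.2%). Of the 68 genes named by the rule used here, 14 were called in that comparison too: Scarb1, Mycl, Nr1i2, Hlf, Kdr, Stab2, Bcl6, Wwox, Plcb1, Slc25a21, Hamp, Zbtb7c, Arfgap3 and Naaladl2. The other 54 were not.

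Scarb1, the target, lies on chromosome 5 from 125277087 to 125341094 on the minus strand (GRCm38). Its level was 29.0, 29.9, 19.6 and 13.6 CPM in the 4 LX-A2003 livers, against 281, 236, 291 and 278 CPM in the 4 PBS livers. Every LX-A2003 library was far below every PBS library, and replicates 3 and 4 were the lowest. The mean was 23.0 ± 7.80 CPM with LX-A2003 and 272 ± 24.2 CPM with PBS (SD, n = 4 each), which left 8.48% of the PBS level, a log2 fold change of -3.56 ± 0.232 (SE, adjusted p = 2.02e-15). Over all 8 fits that each left out 1 library it stayed between -3.71 and -3.38, and against the PBS livers of 72 h it was -3.72. Of the 18 tested genes for scavenger receptors and HDL handling, Scarb1 was the member called. The highest of the others stood at 0.38, and the list's median was -0.02.

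**Figure D1:**
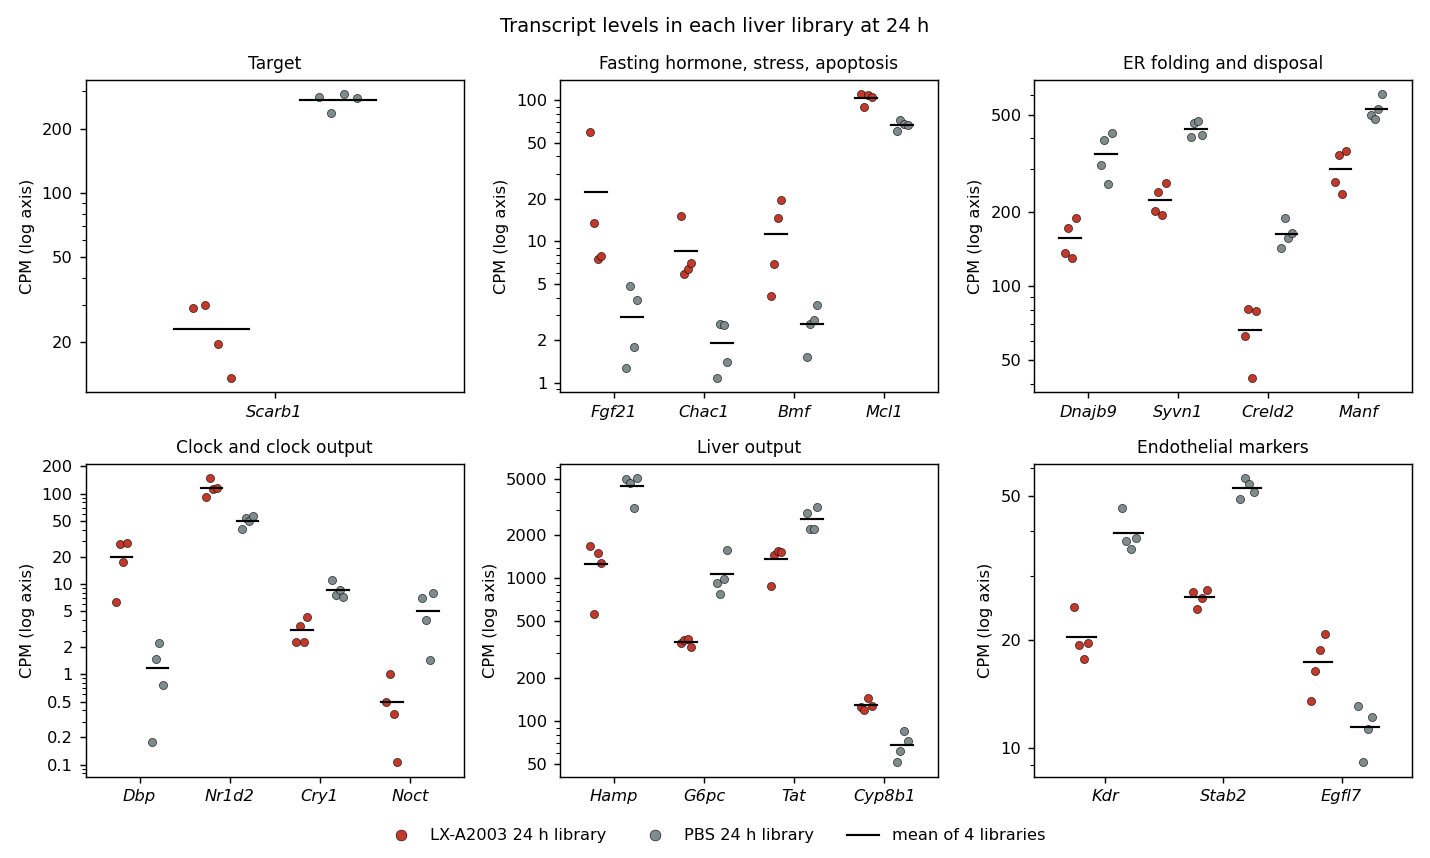
CPM of selected genes in each LX-A2003 library (red, left of each pair) and PBS library (grey, right of each pair) at 24 h, on log axes, with the mean of 4 libraries as a bar. Scarb1 stands at 13.6 to 29.9 CPM in LX-A2003 livers and at 236 to 291 CPM in PBS livers, and the groups do not overlap in any gene drawn.

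The largest differences outside the target included genes of the circadian clock, the transcription loop in which Arntl and Clock switch on Per, Cry and Nr1d genes that then repress them, and through which Dbp, Tef, Hlf and Nfil3, regulators that read the same DNA element, pass the rhythm on to liver metabolism. Of 14 tested clock output genes, 2 rose, Dbp and Tef, and 3 fell, Noct, Hlf and Nfil3. Of 15 tested core clock genes, Nr1d2 and Cry2 rose and Cry1 fell, and the medians of the lists were 0.04 and -0.02. Dbp was at 6.28, 27.8, 17.3 and 28.7 CPM in LX-A2003 livers, against 0.18, 1.47, 2.23 and 0.764 CPM in PBS livers. It was the gene with the highest log2 fold change among the genes ranked, 4.13 ± 0.592 (adjusted p = 2.16e-05). Noct, a deadenylase-related enzyme with a strong daily rhythm in liver, was at 0.498, 1.02, 0.361 and 0.106 CPM with LX-A2003, against 6.91, 3.95, 1.45 and 7.89 CPM with PBS, a log2 fold change of -3.32 ± 0.614 (adjusted p = 0.00072). Cry1, a repressor of the loop, was at 2.26 to 4.34 CPM in LX-A2003 livers and at 7.26 to 11.2 CPM in PBS livers, a log2 fold change of -1.50 ± 0.257 (adjusted p = 0.000241). Nr1d2, the nuclear receptor REV-ERB beta, was at 92.1 to 147 CPM with LX-A2003 and at 40.7 to 56.8 CPM with PBS (log2 fold change 1.22 ± 0.257, adjusted p = 0.00392). The 2 groups did not overlap in any of these 4 genes. Arntl had a log2 fold change of -0.49 ± 0.203 (adjusted p = 0.268), Nr1d1 one of 0.60 ± 0.235 (adjusted p = 0.222) and Per2 one of -0.57 ± 0.316 (adjusted p = 0.483).

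The PBS livers themselves differed between times in several of the same genes. Between PBS livers of 72 h and of 24 h, a comparison that shares the PBS libraries of 24 h, 10 genes were called (0.0789% of the genes tested), 6 higher at 72 h (0.0473%) and 4 lower (0.0316%). Without PBS replicate 4 of 72 h the count was 33, without replicate 1 or 3 of 72 h it was 3, and without replicate 1, 2 or 4 of 24 h it was 2, 4 and 5. Dbp averaged 20.0 ± 10.5 CPM in LX-A2003 livers at 24 h, and in PBS livers 1.16 ± 0.886 CPM at 24 h, 16.5 ± 9.49 CPM at 72 h and 0.894 ± 0.36 CPM at 168 h (SD, n = 4 each). Its log2 fold change with LX-A2003 was 0.28 against the PBS livers of 72 h (adjusted p = 0.991). Ppard, a nuclear receptor that controls fat burning genes, was at 15.2, 14.3, 15.1 and 16.1 CPM with LX-A2003 and at 73.5, 48.4, 60.2 and 36.9 CPM with PBS at 24 h, a log2 fold change of -1.85 ± 0.248 (adjusted p = 4.53e-06), but the PBS livers of 72 h averaged 16.9 CPM, and against these it was -0.16 (adjusted p = 0.991). Clic3, a chloride channel family member, was at 5.29 to 6.98 CPM with LX-A2003 and at 22.8 to 47.3 CPM with PBS at 24 h (log2 fold change -2.39 ± 0.283, adjusted p = 3.06e-07), and stood at 12.4 CPM in PBS livers at 72 h. Tcp11l2, and Lpin2, an enzyme that makes diacylglycerol for triglyceride synthesis, were higher with LX-A2003 than with PBS at 24 h by 1.29 ± 0.173 and 0.95 ± 0.205 on the log2 scale (adjusted p = 4.53e-06 and 0.00484). They were also higher in PBS livers at 72 h than at 24 h by 0.99 and 1.00 (adjusted p = 0.00355 and 0.0244). Of the clock genes above, Hlf kept its call against the PBS livers of 72 h (log2 fold change -1.10, adjusted p = 0.00285), with -0.94 ± 0.211 against those of 24 h (adjusted p = 0.00712). Noct, Cry1, Nr1d2 and Tef did not, with log2 fold changes of -1.57, -0.57, 0.27 and 0.02 (adjusted p = 0.516, 0.595, 0.933 and 1). What part the difference between PBS times has in the 24 h values was not tested.

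**Figure D2:**
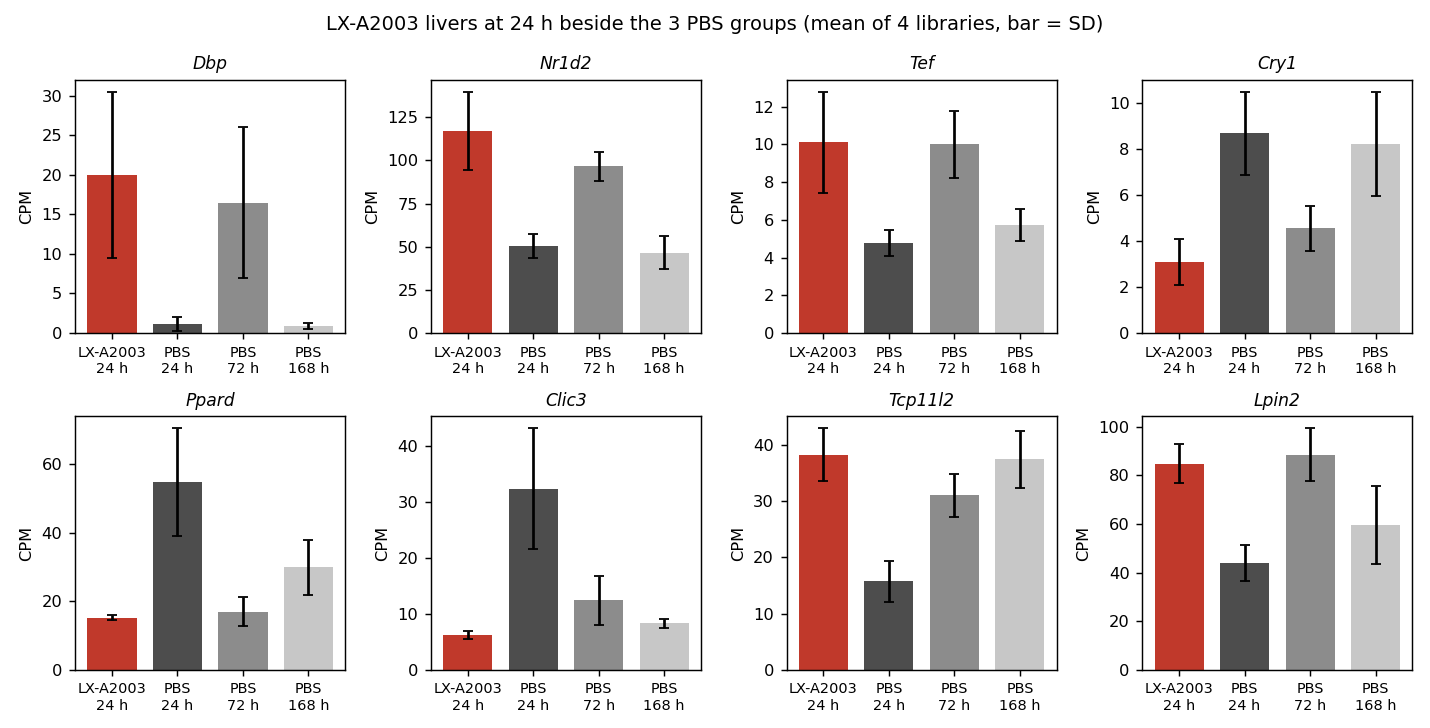
Mean CPM (bars) with SD (error bars, n = 4) of 8 genes in LX-A2003 livers at 24 h and in PBS livers at 24 h, 72 h and 168 h. The 8 genes were picked because their PBS means also differed between 24 h and 72 h. In all 8 the mean of the LX-A2003 livers is nearer to that of PBS at 72 h than to that of PBS at 24 h, which this choice favours. Hlf, not drawn, averaged 29.6 CPM with LX-A2003, 56.7 CPM with PBS at 24 h and 63.7 CPM with PBS at 72 h. Between the PBS times, Cry1, Nr1d2 and Tef were not called by the edgeR test (adjusted p = 0.187, 0.197 and 0.106).

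The calls of Tef, Cry2 and Nfil3 were each lost when any 1 of several libraries was left out. Tef had a log2 fold change of 1.09 ± 0.262 (adjusted p = 0.0134), and the call was lost without LX-A2003 replicate 2 or 4 or PBS replicate 1 or 2 (adjusted p = 0.0505 to 0.0799). Cry2 stood at 0.62 ± 0.166 (adjusted p = 0.0315) and was lost without LX-A2003 replicate 3 or 4 or PBS replicate 1, 2 or 4 (adjusted p = 0.0711 to 0.136). Nfil3 stood at -1.18 ± 0.310 (adjusted p = 0.0294) and was lost without LX-A2003 replicate 2, 3 or 4 or PBS replicate 1, 2 or 4 (adjusted p = 0.0573 to 0.145). Cry2 was also lost with library totals alone (adjusted p = 0.0714) and Nfil3 with no filter on low counts (adjusted p = 0.0511).

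Some genes of the endoplasmic reticulum (ER) that fold secreted proteins or dispose of misfolded ones were lower with LX-A2003. The list holds genes that are switched on by XBP1 and ATF6 when folding in the ER is under strain. Of 31 tested, 7 fell and 0 rose: Dnajb9, Syvn1, Creld2, Manf, Sdf2l1, Hyou1 and Dnajb11. The list's median log2 fold change was -0.13, and 23 of 31 members lay below 0. Dnajb9, a co-chaperone of the main ER chaperone, was at 136, 172, 130 and 189 CPM with LX-A2003, against 313, 393, 260 and 420 CPM with PBS (log2 fold change -1.14 ± 0.2, adjusted p = 0.000298). Syvn1, the ubiquitin ligase that marks misfolded ER proteins for disposal, was at 202, 241, 195 and 262 CPM with LX-A2003, against 407, 463, 469 and 411 CPM with PBS (log2 fold change -0.96 ± 0.210, adjusted p = 0.00539). Creld2, a disulfide isomerase-like protein, was at 42.3 to 80.7 CPM with LX-A2003 and at 143 to 190 CPM with PBS (log2 fold change -1.31 ± 0.311, adjusted p = 0.0127, and 0.092 without LX-A2003 replicate 3). In each of these the groups were apart, with replicate 3 of LX-A2003 the lowest. Hspa5, the main ER chaperone itself, was at 1020 to 1550 CPM with LX-A2003 and at 1880 to 2350 CPM with PBS, a log2 fold change of -0.72 ± 0.227 that was not called (adjusted p = 0.0842). Xbp1 stood at -0.13 ± 0.144 (adjusted p = 0.815). Manf had a log2 fold change of -0.81 ± 0.204 (adjusted p = 0.0201), lost without LX-A2003 replicate 1 or 3 or PBS replicate 4 (adjusted p = 0.0762 to 0.113). Sdf2l1 had one of -0.75 ± 0.209 (adjusted p = 0.0425), lost in 7 of the 8 fits without 1 library, all but that without LX-A2003 replicate 2 (adjusted p = 0.0605 to 0.217). PBS means of these genes were lower at 72 h than at 24 h, 213 CPM for Dnajb9, 330 CPM for Syvn1 and 110 CPM for Creld2. With the PBS livers of 72 h as the comparison, none of Dnajb9, Syvn1, Creld2, Manf and Sdf2l1 passed, with log2 fold changes from -0.73 for Creld2 to -0.18 for Manf.

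The heat shock list gave a like picture with 1 call. Of 11 tested genes Hsph1, a helper of the cytosolic HSP70 chaperone, fell, and 9 lay below 0 (median -0.36). Hsph1 was at 62.0, 114, 62.4 and 99.9 CPM with LX-A2003, against 218, 227, 199 and 216 CPM with PBS, a log2 fold change of -1.35 ± 0.251 (adjusted p = 0.000784). The PBS livers of 72 h averaged 134 CPM, and against these it stood at -0.67 (adjusted p = 0.383).

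The integrated stress response, in which ATF4 switches on genes of amino acid supply and redox control, moved in few members. Of 26 tested genes, Chac1 and Fgf21 rose and Ddit4 fell, the median log2 fold change was 0.23, and 19 lay above 0. Chac1, an enzyme that degrades glutathione, was at 15.1, 5.90, 6.41 and 7.09 CPM with LX-A2003, against 1.08, 2.60, 2.56 and 1.40 CPM with PBS (log2 fold change 2.18 ± 0.371, adjusted p = 0.000225). Fgf21, a hormone that the liver releases in fasting and under stress, was at 60.1, 13.5, 7.50 and 7.93 CPM with LX-A2003, against 1.26, 4.85, 1.78 and 3.82 CPM with PBS (log2 fold change 2.95 ± 0.678, adjusted p = 0.00972). For both genes replicate 1 of LX-A2003 was far above the other 3. Chac1 kept its call without it, while Fgf21 lost it without LX-A2003 replicate 1 (adjusted p = 0.199) and without PBS replicate 1 (adjusted p = 0.071). Neither passed against the PBS livers of 72 h, with log2 fold changes of 1.09 and 1.60 (adjusted p = 0.199 and 0.421). Ddit4, an inhibitor of mTORC1, was at 8.37 to 10.3 CPM with LX-A2003 and at 14.8 to 19.3 CPM with PBS (log2 fold change -0.82 ± 0.229, adjusted p = 0.0425), and its call was lost in all 8 fits without 1 library (adjusted p = 0.0605 to 0.128). Other members that ATF4 is known to switch on did not pass: Trib3 had a log2 fold change of 1.31 ± 0.439 (adjusted p = 0.122), Asns one of 0.67 ± 0.643 (adjusted p = 0.773), and Atf4 itself one of 0.17 ± 0.139 (adjusted p = 0.702).

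The promoters of the called members of these lists were read for the elements that the factors of these pathways bind; members moved in both directions in the stress response and clock lists. Promoters run from 250 bases before to 50 after the RefSeq start (GRCm38.p6), and both strands were searched. TGATGNAA, the element of ATF4 with a C/EBP partner, was in 3.97% of 32851 promoters and in those of Chac1 and Fgf21 but not Ddit4. It was in 9 of the 24 tested stress response genes with a promoter in the table (37.5%), called or not. The ER stress response element, a CCAAT box spaced from a second short element, was in 0.119% of all promoters and in Creld2 and Syvn1 among the 5 called ER genes with a promoter in the table, against 9 of the 26 tested ER genes with a promoter (34.6%). TGACGTGG, an element that XBP1 and ATF6 read, was in 0.676% and CACGTG, the E-box of the clock, in 7.15% of all promoters. TGACGTGG was in none of these called genes, and CACGTG was in Fgf21, Dnajb9, Cry1 and Tef. TTATGTAA, the element read by Dbp and its relatives, was in 0.938% of all promoters and in none of the called clock genes. The end of the ER stress response element can share bases with TGACGTGG. A match is a description of letters and not a site shown to be used. The windows below are on the strand of the gene, 5′ to 3′, with 45 bases on either side of the match and the matched letters in capitals; in Chac1, Fgf21 and Creld2 the match is to the opposite strand.
Chac1 (chr2:119351004-119351101, plus strand): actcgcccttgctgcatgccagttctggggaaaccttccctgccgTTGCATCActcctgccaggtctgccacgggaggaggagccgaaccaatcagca
Fgf21 (chr7:45615577-45615674, minus strand): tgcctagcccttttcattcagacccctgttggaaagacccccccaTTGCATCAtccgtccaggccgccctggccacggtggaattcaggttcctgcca
Creld2 (chr15:88819475-88819583, plus strand): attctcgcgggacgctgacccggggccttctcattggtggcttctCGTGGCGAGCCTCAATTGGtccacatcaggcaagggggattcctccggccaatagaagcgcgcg
Syvn1 (chr19:6046487-6046595, plus strand): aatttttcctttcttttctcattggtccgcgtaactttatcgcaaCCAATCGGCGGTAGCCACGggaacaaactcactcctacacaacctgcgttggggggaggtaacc

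The lists of cell survival and growth regulators held few called members. Over all genes tested, 0.939% were higher and 1.15% lower. The median log2 fold change was 0.31 in the BCL2 family, 0.13 in p53 targets and 0.01 in cell cycle genes. Of 13 tested members of the BCL2 family, Bmf and Mcl1 rose. Bmf, which promotes apoptosis, was at 4.08, 6.92, 14.7 and 19.6 CPM with LX-A2003, against 1.53, 2.60, 2.79 and 3.56 CPM with PBS (log2 fold change 2.13 ± 0.423, adjusted p = 0.00187). Mcl1, which restrains apoptosis, was at 89.1 to 111 CPM with LX-A2003 and at 60.2 to 72.4 CPM with PBS (log2 fold change 0.63 ± 0.126, adjusted p = 0.00206). Of 25 tested p53 targets Trp53inp1, an autophagy and stress protein, rose by 0.84 ± 0.198 on the log2 scale (adjusted p = 0.0111), lost without LX-A2003 replicate 4 or PBS replicate 1 (adjusted p = 0.0558 and 0.0535). Cdkn1a, the cell cycle inhibitor p21 and the best known of those targets, was at 6.77 to 12.6 CPM with LX-A2003 and at 19.5 to 38.4 CPM with PBS, a log2 fold change of -1.32 ± 0.389 that was not called (adjusted p = 0.0609). Ccnd2, a cyclin that drives entry into the cell cycle, fell by 0.89 on the log2 scale (SE 0.204, adjusted p = 0.00826) as the member called of 23 tested cell cycle genes. None of Bmf, Mcl1, Trp53inp1 and Ccnd2 was called against the PBS livers of 72 h. Their log2 fold changes there were 0.88, 0.33, 0.37 and -0.73 (adjusted p = 0.556, 0.405, 0.702 and 0.11).

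In the growth hormone axis, Socs2, a feedback inhibitor that growth hormone induces through STAT5, rose, and Bcl6, which represses STAT5 targets, fell, of 17 tested. Socs2 was at 11.0, 6.20, 1.63 and 3.28 CPM with LX-A2003, against 0.718, 0.564, 1.23 and 0 CPM with PBS (log2 fold change 3.07 ± 0.791, adjusted p = 0.0261). Its call was lost without LX-A2003 replicate 1 or 2 or PBS replicate 1, 2 or 4 (adjusted p = 0.0506 to 0.133). Bcl6 was at 47.6 to 75.0 CPM with LX-A2003 and at 102 to 154 CPM with PBS (log2 fold change -1.14 ± 0.322, adjusted p = 0.0482), lost in all 8 fits without 1 library (adjusted p = 0.0605 to 0.145). Igf1, the main output of the axis, had a log2 fold change of -0.19 ± 0.243 (adjusted p = 0.855).

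Of 20 tested genes of glucose release and glycogen, G6pc and Ppp1r3c fell, and the list's median was 0.01. G6pc, the last enzyme of glucose release, was at 355, 370, 378 and 333 CPM with LX-A2003, against 926, 773, 992 and 1590 CPM with PBS (log2 fold change -1.57 ± 0.339, adjusted p = 0.00484). With the PBS livers of 72 h it was -0.75 (adjusted p = 0.569). The LX-A2003 livers were within a narrow range below all PBS livers. Ppp1r3c, which targets a phosphatase to glycogen, was at 114 to 144 CPM with LX-A2003 and at 273 to 331 CPM with PBS (log2 fold change -1.16 ± 0.305, adjusted p = 0.031), lost in 7 of the 8 fits without 1 library, all but that without PBS replicate 3 (adjusted p = 0.063 to 0.117). Pck1, the enzyme that commits carbon to glucose synthesis, was at 943, 1720, 455 and 510 CPM with LX-A2003, against 2440, 2130, 2430 and 3490 CPM with PBS, a log2 fold change of -1.53 ± 0.504 that was not called (adjusted p = 0.111). Tat, which starts tyrosine breakdown, fell by 0.94 on the log2 scale (SE 0.235, adjusted p = 0.019), lost without LX-A2003 replicate 1 or PBS replicate 1 or 4 (adjusted p = 0.0665 to 0.111), as the member called of 23 genes of the urea cycle and amino acid breakdown.

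In fat metabolism the nuclear receptor Ppara, the switch of fatty acid burning, rose by 0.79 ± 0.204, and Cpt1a, which admits fatty acids to mitochondria, rose by 0.58 ± 0.139 on the log2 scale (adjusted p = 0.0248 and 0.0137). Pdk4, which blocks the use of pyruvate, fell by 1.09 on the same scale (SE 0.297, adjusted p = 0.0368). These were the members called of 24 tested. Cpt1a was lost without replicate 1 of LX-A2003 or of PBS (adjusted p = 0.0769 and 0.0926). Ppara was lost without LX-A2003 replicate 1, 3 or 4 or PBS replicate 1, 3 or 4 (adjusted p = 0.0531 to 0.106), and Pdk4 without LX-A2003 replicate 1, 2 or 3 or PBS replicate 1, 2 or 4 (adjusted p = 0.0739 to 0.125). Ppara stood at 0.03 and Cpt1a at 0.08 against the PBS livers of 72 h. Lpin2 was the member called of 22 tested genes of fatty acid and triglyceride synthesis.

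In the lists of cholesterol and bile acid genes, the calls other than Scarb1 at 24 h were Npc1, Soat2 and Cyp8b1. Over all genes tested, 0.939% were called higher. None of the 18 tested sterol synthesis enzymes was called, and their median log2 fold change was 0.26 with 15 of 18 above 0. Sqle, an enzyme of that pathway, was at 0.398 to 2.43 CPM with LX-A2003 and at 0.564 to 1.89 CPM with PBS (log2 fold change 0.40 ± 0.403, adjusted p = 0.794). Of 17 genes of sterol sensing, Npc1, which exports cholesterol from lysosomes, and Soat2, which esterifies it, rose. The lowest log2 fold change of that list was -1.75, in a member that was not called. Npc1 was at 153, 155, 213 and 228 CPM with LX-A2003, against 96.5, 92.9, 116 and 119 CPM with PBS (log2 fold change 0.82 ± 0.164, adjusted p = 0.00198), and stood at 0.20 against the PBS livers of 72 h (adjusted p = 0.912) and at 0.46 against the mean of the 3 PBS groups (adjusted p = 0.0515). Soat2 was at 36.8 to 68.8 CPM with LX-A2003 and at 28.9 to 37.8 CPM with PBS, groups that overlap (log2 fold change 0.70 ± 0.167, adjusted p = 0.012), and was lost without LX-A2003 replicate 3 or 4 or PBS replicate 1 or 4 (adjusted p = 0.0627 to 0.113). Cyp8b1, which sets the share of cholic acid in bile, rose as the member called of 17 bile acid genes, at 120 to 146 CPM with LX-A2003 and at 51.6 to 85.0 CPM with PBS (log2 fold change 0.94 ± 0.222, adjusted p = 0.0111). Its call was lost without LX-A2003 replicate 3 or PBS replicate 1 or 2 (adjusted p = 0.0505 to 0.0869). Cyp7a1, the rate-limiting enzyme of bile acid synthesis, had a log2 fold change of 0.51 ± 0.543 (adjusted p = 0.805).

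Hamp, the gene of hepcidin, the hormone that lowers iron export into blood, fell. It was at 1680, 561, 1510 and 1280 CPM with LX-A2003, against 4980, 4670, 3120 and 5010 CPM with PBS. All 4 LX-A2003 livers were below all PBS livers, replicate 2 by the most, and the log2 fold change was -1.82 ± 0.301 (adjusted p = 0.000164). The difference from the PBS livers of 72 h was -1.54 (adjusted p = 0.00341). Mice carry a close copy, Hamp2, and the sources used here do not state how the counting separated the copies. Id3, a target of the BMP signal that also drives hepcidin, had overlapping groups, 66.9 to 103 CPM with LX-A2003 and 88.9 to 186 CPM with PBS (log2 fold change -0.88 ± 0.247, adjusted p = 0.0462), and was lost in 6 of the 8 fits without 1 library, all but those without LX-A2003 replicate 1 or PBS replicate 3 (adjusted p = 0.0902 to 0.176). These were the members called of 17 genes of iron regulation. Id1 and Smad7, also BMP targets, stood at -0.17 and -0.41 (adjusted p = 0.911 and 0.433).

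Immune and other stress lists held few called members. Cxcl1, a chemokine that draws neutrophils, was at 46.6, 16.2, 30.8 and 37.9 CPM with LX-A2003, against 12.4, 14.3, 12.9 and 10.7 CPM with PBS (log2 fold change 1.38 ± 0.316, adjusted p = 0.00872, and 0.0569 without LX-A2003 replicate 1). It was the member called of 17 cytokines and NF-kB targets. None of the 7 tested neutrophil markers was called, all 7 had log2 fold changes above 0 (median 0.79), and the summed level of the 12 listed was 8.76 to 12.3 CPM with LX-A2003 and 4.97 to 7.36 CPM with PBS, with Mpo and Elane at 0 in both groups and Ly6g at 0 with PBS. Their part in the Cxcl1 level was not tested. Of 31 interferon response genes Xaf1 rose by 1.15 ± 0.274 on the log2 scale (adjusted p = 0.0128), and of 24 NRF2 targets Nqo1 rose by 0.98 ± 0.241 (adjusted p = 0.0176). Nqo1 was lost without LX-A2003 replicate 3 or 4 or PBS replicate 1 or 2 (adjusted p = 0.063 to 0.141), and Xaf1 without LX-A2003 replicate 3 or PBS replicate 1 (adjusted p = 0.0828 and 0.0904). Of 26 immediate early genes Klf10, a repressor induced by TGF-beta and by the clock, rose by 1.30 ± 0.271 (adjusted p = 0.00328). Of 24 genes of xenobiotic metabolism Nr1i2, the nuclear receptor PXR that induces drug-clearing enzymes, fell, with 46.5 to 52.1 CPM with LX-A2003 and 78.2 to 90.3 CPM with PBS (log2 fold change -0.79 ± 0.161, adjusted p = 0.00258). Npc1, described above, also belonged to the list of 31 lysosomal genes, whose median log2 fold change was 0.12. No gene was called among 20 acute phase genes (median 0.14) or 11 paraspeckle and nuclear noncoding RNAs (median -0.02), of which Neat1 was at 527 to 1250 CPM with LX-A2003 and at 296 to 360 CPM with PBS (log2 fold change 1.43 ± 0.576, adjusted p = 0.24).

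Among cell type markers, Stab2 and Kdr fell and Egfl7 rose, of 17 tested for sinusoidal endothelial cells. Stab2, the scavenger receptor stabilin-2 that takes part in oligonucleotide uptake, was at 27.1, 24.4, 26.2 and 27.5 CPM with LX-A2003, against 49.3, 56.1, 54.0 and 51.6 CPM with PBS (log2 fold change -1.0 ± 0.192, adjusted p = 0.00105). Kdr, the VEGF receptor of endothelium, was at 24.7, 19.3, 17.7 and 19.6 CPM with LX-A2003, against 46.6, 37.5, 35.8 and 38.3 CPM with PBS (log2 fold change -0.96 ± 0.185, adjusted p = 0.0011). In both genes the groups were tight and well apart, and both kept their calls without any 1 library and against the PBS livers of 72 h (log2 fold changes -0.98 and -1.02). Other markers of these cells were not called, among them Stab1, at -0.04 ± 0.170 (adjusted p = 0.975), and Clec4g, at 0.23 ± 0.213 (adjusted p = 0.763). The list's median was 0.05 and its summed level was 466 to 522 CPM with LX-A2003 and 517 to 544 CPM with PBS. In bulk liver, fewer cells of a type and less RNA per cell cannot be told apart. Egfl7 stood at 0.60 ± 0.161 (adjusted p = 0.0328), and its call was lost without LX-A2003 replicate 3 or 4 or PBS replicate 2, 3 or 4 (adjusted p = 0.0582 to 0.168). Stab2 was also the member called of 22 genes of RNase H and oligonucleotide handling, where Rnaseh1 stood at -0.29 ± 0.225 (adjusted p = 0.697). Sox9, a regulator of bile duct cells, fell as the member called of 9 cholangiocyte markers, at 7.12 to 9.85 CPM with LX-A2003 and at 16.9 to 20.4 CPM with PBS (log2 fold change -1.07 ± 0.241, adjusted p = 0.0067), while the list's summed level overlapped, at 132 to 163 CPM with LX-A2003 and 146 to 177 CPM with PBS. Sox9 stood at -0.39 against the PBS livers of 72 h (adjusted p = 0.839). None was called among 11 hepatocyte, 12 Kupffer cell, 9 monocyte and macrophage, 6 T cell, 5 NK cell, 5 B and plasma cell, 8 dendritic cell, 13 stellate cell, 4 erythroid, 2 mast cell and 2 pancreas markers tested.

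Outside the lists, the highest fold changes were those of genes with varied roles. Foxq1, a forkhead factor, rose by 2.01 ± 0.476 on the log2 scale (adjusted p = 0.0127), lost without LX-A2003 replicate 4 or PBS replicate 2 or 4 (adjusted p = 0.0565 to 0.0929). Mycl, a relative of Myc, was at 8.95 to 12.4 CPM with LX-A2003 and at 3.23 to 5.57 CPM with PBS (log2 fold change 1.39 ± 0.234, adjusted p = 0.000182), and was the member of the 15 highest whose call held against the PBS livers of 72 h (log2 fold change 1.16, adjusted p = 0.0043). Arrdc3, an arrestin-like regulator of receptor traffic and the most abundant of the 15, was at 349 to 677 CPM with LX-A2003 and at 131 to 274 CPM with PBS (log2 fold change 1.35 ± 0.295, adjusted p = 0.00559). Fbxo21, a subunit of a ubiquitin ligase, averaged 370.0 CPM with LX-A2003 and 159 CPM with PBS (log2 fold change 1.22 ± 0.188, adjusted p = 5.4e-05). Cpsf4l, Gprin3, Crebrf, Cables1 and Csrnp1 had log2 fold changes of 1.69, 1.48, 1.38, 1.27 and 1.23. Among the lowest, Arfgap3, which controls traffic from the Golgi, was at 6.14 to 7.22 CPM with LX-A2003 and at 22.3 to 33.4 CPM with PBS (log2 fold change -2.03 ± 0.248, adjusted p = 5.62e-07). Slc16a6, known in zebrafish as a carrier that exports ketone bodies, was at 12.0, 11.7, 6.50 and 6.24 CPM with LX-A2003, against 30.7, 26.5, 23.4 and 43.4 CPM with PBS (log2 fold change -1.77 ± 0.277, adjusted p = 6.98e-05). Pitx3 and Arl4d stood at -1.92 and -1.49, and at -0.28 and -0.94 against the PBS livers of 72 h (adjusted p = 0.98 and 0.0931). Lrrc4 stood at -1.55 ± 0.415 (adjusted p = 0.0335), and its call was lost without LX-A2003 replicate 1, 3 or 4 or PBS replicate 1, 3 or 4 (adjusted p = 0.0539 to 0.108). Crebrf was lost without LX-A2003 replicate 1 or PBS replicate 1 or 4 (adjusted p = 0.0663 to 0.0999).

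**Figure D3:**
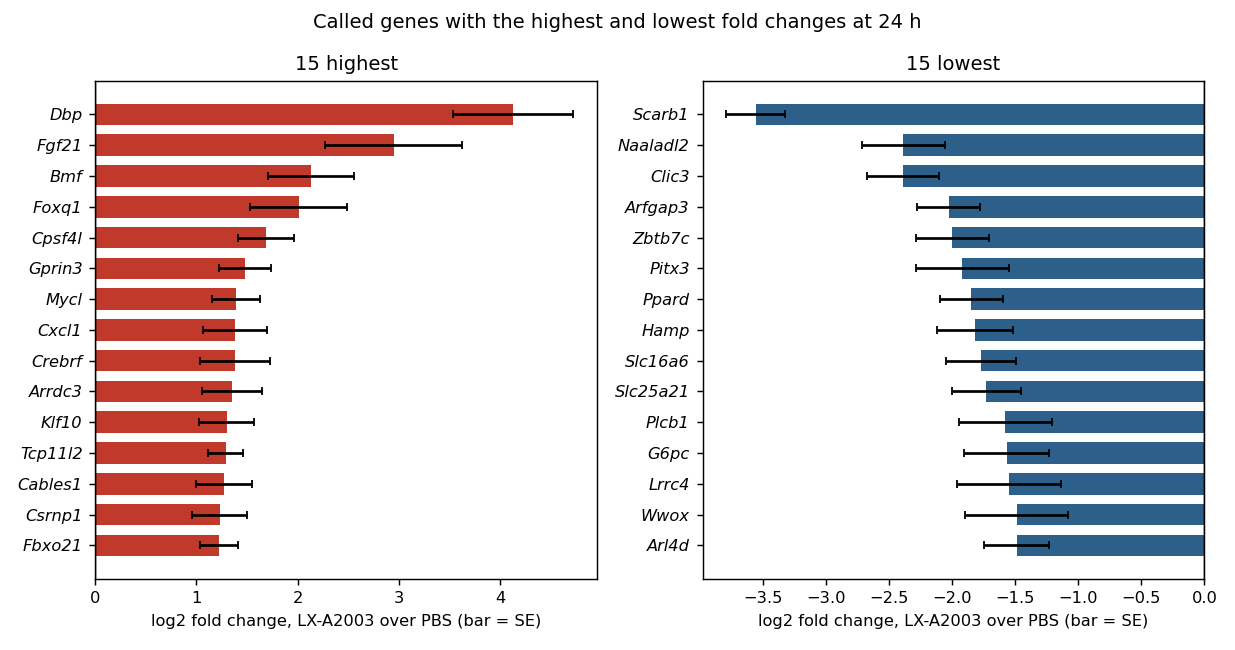
Log2 fold changes (LX-A2003 over PBS at 24 h, bars) with SE (error bars) of the 15 highest and 15 lowest called genes that averaged 10 CPM or more in 1 group and whose libraries did not overlap. Dbp at 4.13 and Scarb1 at -3.56 are the ends of the range.

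Genes called lower differed from the other genes tested in how much of the chromosome they span. Span is the distance from the start to the end of the gene in the GENCODE annotation of GRCm38, introns included. Its median was 46.5 kb in genes called lower, 20.3 kb in genes called higher and 24.3 kb in all genes tested. Of 100 tested genes over 500 kb, 13 were called lower (13.0%) and 0 higher, and of 457 genes from 200 to 500 kb, 20 were lower (4.38%) and 0 higher. From 100 to 200 kb, 17 were lower and 8 higher of 1053, and in shorter classes 0.844% to 0.920% were lower and 0.953% to 1.11% higher. The median log2 fold change was -0.35 over 500 kb, -0.16 from 200 to 500 kb and 0.04 up to 10 kb. The 33 genes called lower with a span over 200 kb were Park2, Adam12, Naaladl2, Erbb4, Zbtb7c, Galnt18, Slc25a21, St6galnac3, Plcb1, Wwox, Arhgap26, Immp2l, Chsy3, Ptprg, Sox5, Fmnl2, Celf2, Stag1, Bbs9, Agap1, Pde4b, Cadps2, Plekhg1, Btbd9, Peak1, Sorbs2, Fbxl17, Lpp, Etv6, Scfd2, Lrrc16a, Vps8 and Gphn. They were chosen here by their call and span and are a description.

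**Figure D4:**
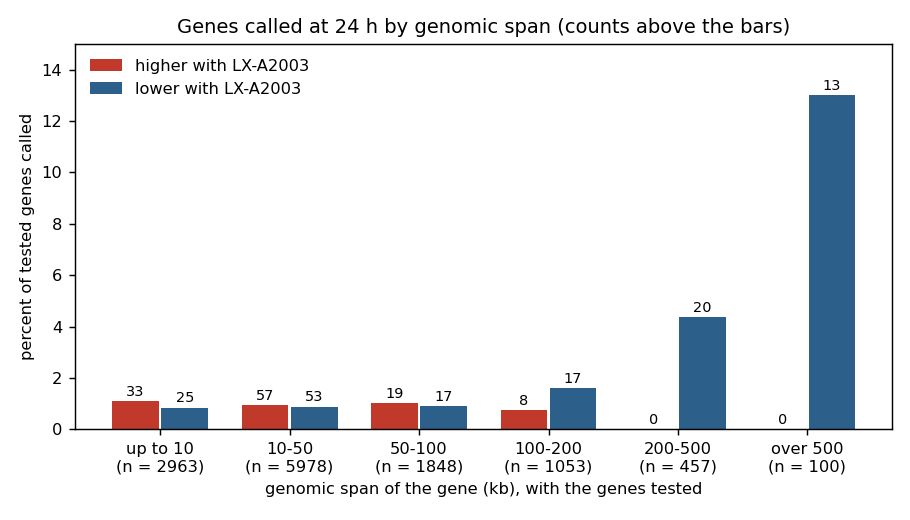
Percent of the genes tested that were called higher (red, left) and lower (blue, right) with LX-A2003 at 24 h, by genomic span, with the number called above each bar. In the class over 500 kb 13 of 100 genes were lower and 0 higher.

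Of these long genes, Naaladl2, a peptidase-like gene that spans 1346 kb on chromosome 3, was at 2.99, 2.85, 3.34 and 2.75 CPM with LX-A2003, against 17.8, 14.3, 14.7 and 15.8 CPM with PBS (log2 fold change -2.39 ± 0.330, adjusted p = 8.27e-06). Park2, the ubiquitin ligase parkin, spans 1223 kb on chromosome 17 and averaged 1.14 CPM with LX-A2003 and 8.24 CPM with PBS (log2 fold change -2.84 ± 0.482, adjusted p = 0.000241). Erbb4, a receptor tyrosine kinase, spans 1076 kb on chromosome 1 and averaged 1.37 CPM with LX-A2003 and 6.43 CPM with PBS (log2 fold change -2.22 ± 0.314). Zbtb7c, a transcription repressor that spans 328.4 kb, was at 25.7, 28.8, 7.86 and 8.15 CPM with LX-A2003, against 60.4, 72.2, 74.2 and 74.5 CPM with PBS (log2 fold change -2.00 ± 0.287, adjusted p = 1.49e-05). Replicates 3 and 4 of LX-A2003 were again the lower pair. Slc25a21, a mitochondrial carrier of 484.8 kb, was at 3.43 to 7.02 CPM with LX-A2003 and at 15.5 to 19.2 CPM with PBS (log2 fold change -1.73 ± 0.273, adjusted p = 7.44e-05). Plcb1, a phospholipase of 689.2 kb, stood at -1.58 ± 0.368 (adjusted p = 0.0104, and 0.0617 without PBS replicate 1). Wwox, an oxidoreductase of 913.1 kb, stood at -1.49 ± 0.411 (adjusted p = 0.0417) and was lost in all 8 fits without 1 library (adjusted p = 0.0538 to 0.145). Sorbs2, an actin-linked adaptor of 320.1 kb and the most abundant of the 33, averaged 135 CPM with LX-A2003 and 231 CPM with PBS (log2 fold change -0.77 ± 0.133, adjusted p = 0.000241). Of the 50 lower genes over 100 kb, 29 kept their call against the PBS livers of 72 h, and of the 95 lower genes up to 100 kb, 18 did, where 0.45% of all genes tested were lower.

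The genes called at 24 h were then read in the livers of 72 h and 168 h, whose libraries are in neither group of the 24 h comparison. All 48 libraries share 1 fit, so those libraries also shaped the filter and the spread behind the 24 h calls. At 72 h, LX-A2003 against PBS gave 694 genes higher and 830 lower (5.48% and 6.55% of the genes tested, 12.0% in all), and at 168 h 3775 higher and 3212 lower (29.8% and 25.3%, 55.1% in all). Of the 119 genes higher at 24 h, 51 were higher again at 72 h (42.9% of the 24 h list and 7.35% of the 72 h list), 1 was lower, and at 168 h 50 were higher and 32 lower. Of the 146 genes lower at 24 h, 77 were lower again at 72 h (52.7% and 9.28% of the lists) and 0 higher, and at 168 h 71 were lower and 25 higher. These counts moved with single libraries of 24 h. The higher genes called again at 72 h were 25 without PBS replicate 1 and 33 without PBS replicate 2, and the lower ones were 43, 44 and 49 without LX-A2003 replicate 3, LX-A2003 replicate 4 and PBS replicate 1. At 168 h the higher ones were 32, 27, 21 and 28 without LX-A2003 replicate 3, LX-A2003 replicate 4, PBS replicate 1 and PBS replicate 2, and the lower ones 39 and 41 without LX-A2003 replicates 3 and 4. Genes called in the same direction at all 3 times numbered 32 higher and 63 lower. Among lower genes over 200 kb, 30 of 33 were lower again at 72 h and 27 at all 3 times, with a median log2 fold change of -1.10 at 24 h, -2.25 at 72 h and -2.05 at 168 h. Among lower genes up to 100 kb, 32 of 95 were lower again at 72 h, and the medians were -0.89 at 24 h, -0.32 at 72 h and -0.14 at 168 h. Of all genes tested, 57 of 100 over 500 kb and 186 of 457 from 200 to 500 kb were lower at 72 h. In the classes up to 10, 10 to 50 and 50 to 100 kb it was 58 of 2963, 215 of 5978 and 114 of 1848. The shares of long and shorter genes lower again at 72 h therefore start from unlike base rates. A test of whether the effect at 72 h differed from that at 24 h called 2.71% of all genes, 0.994% towards higher and 1.71% towards lower at 72 h, with 222 calls in place of 343 without PBS replicate 1 of 72 h and 225 without LX-A2003 replicate 3 of 72 h. It reuses the 24 h libraries by which the 265 genes were called, which favours a return towards PBS among them, and no count of those genes is given for it. Slc25a21 reached a log2 fold change of -5.20 at 72 h, Naaladl2 one of -4.77 and Immp2l one of -6.65, against -1.38 for Immp2l at 24 h. Scarb1 stood at -5.78 ± 0.263 at 72 h and -4.68 ± 0.245 at 168 h, with means of 5.59 and 12.5 CPM in LX-A2003 livers and 304 and 320 CPM in PBS livers.

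**Figure D5:**
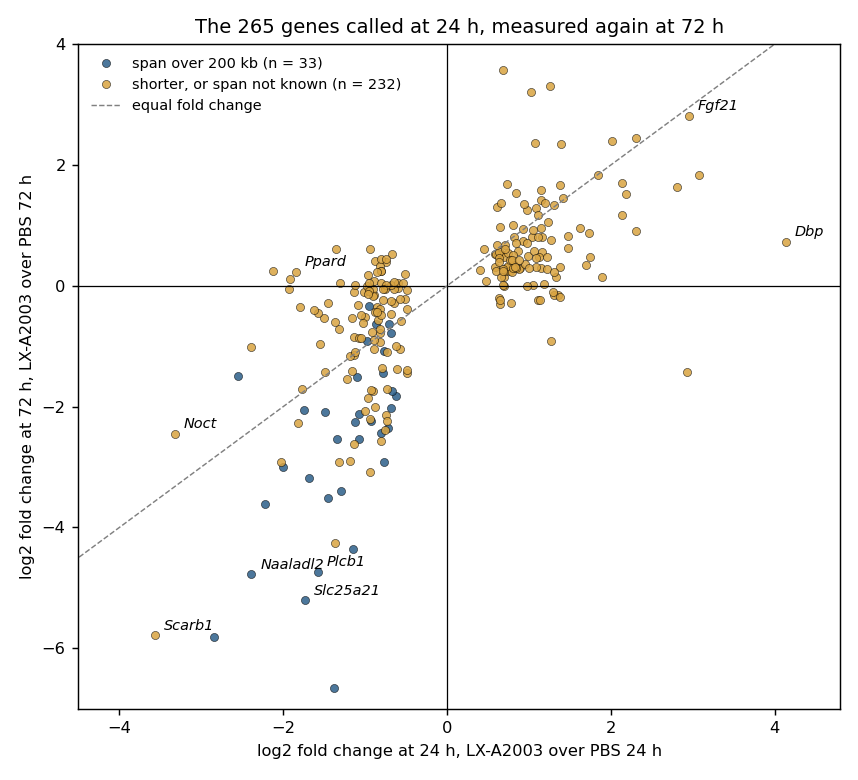
Log2 fold change at 72 h (vertical axis) against that at 24 h (horizontal axis), each LX-A2003 over PBS of the same time, for the 265 genes called at 24 h, with the 33 genes over 200 kb in blue. Of these 33, 30 were called lower at 72 h too, most of them below the dashed line of equal fold change. Of all tested genes, 57 of 100 over 500 kb and 186 of 457 from 200 to 500 kb were lower at 72 h.

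Calls grew in number over all genes tested between 24 h and the later times. At 24 h 0.939% were higher and 1.15% lower, at 72 h 5.48% and 6.55%, and at 168 h 29.8% and 25.3%. The list counts below stand beside these shares. Of the 18 sterol synthesis enzymes 16 were higher at 72 h and 14 at 168 h, with medians of 0.26 at 24 h, 1.16 at 72 h and 1.55 at 168 h. The interferon list had 1 gene higher at 24 h, 12 at 72 h and 28 at 168 h of 31, and the integrated stress response 2, 10 and 18 of 26. The ER list had 7 genes lower at 24 h, 1 at 72 h and 13 at 168 h of 31. Fgf21 remained called, with a log2 fold change of 2.81 at 72 h (adjusted p = 0.0012) and 3.82 at 168 h (adjusted p = 5.23e-06). Chac1 was higher at 72 h and lower at 168 h, with log2 fold changes of 1.52 and -1.53 (adjusted p = 0.00124 and 0.000341). Hamp was lower at 72 h as well (log2 fold change -2.27, adjusted p = 2.8e-07) and stood at -0.12 at 168 h (adjusted p = 0.737). Stab2 and Kdr went further down at 72 h, to -2.07 and -1.86.

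The 3 oligonucleotides were compared with each other directly at 24 h. The sources used here do not state their doses or structural differences. The PBS libraries were in neither group of these comparisons but were part of the same fit. Between LX-A2003 and LX-A1656, 36 genes were called (0.284% of the genes tested), 21 higher with LX-A2003 (0.166%) and 15 lower (0.118%). Between LX-A2003 and LX-A3928, 19 were called (0.15%), 11 higher (0.0868%) and 8 lower (0.0631%). Scarb1 differed in both: its mean was 23.0 ± 7.80 CPM with LX-A2003, 10.6 ± 1.04 CPM with LX-A1656 and 48.1 ± 9.78 CPM with LX-A3928 (SD, n = 4 each). The log2 fold change was 1.12 ± 0.229 over LX-A1656 (adjusted p = 0.0103) and -1.06 ± 0.216 over LX-A3928 (adjusted p = 0.0145). Against the same PBS libraries of 24 h, LX-A1656 gave 125 genes higher and 238 lower (0.986% and 1.88%, 2.86% in all) and LX-A3928 gave 213 higher and 200 lower (1.68% and 1.58%, 3.26% in all), counts that share their controls with the 119 and 146 of LX-A2003. Of the 100 tested genes over 500 kb, 13 were lower with LX-A2003, 27 with LX-A1656 and 14 with LX-A3928 in these comparisons. Single libraries moved the direct counts, to 11 without LX-A2003 replicate 2, LX-A1656 replicate 1 or LX-A1656 replicate 2 and 14 without LX-A2003 replicate 1 in the comparison with LX-A1656. In that with LX-A3928 the count was 6, 9 and 12 without LX-A2003 replicate 1, 3 and 4 and 10, 7 and 9 without LX-A3928 replicate 2, 3 and 4.

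Of the 17 endothelial markers tested, Kdr and Stab2 were called higher with LX-A2003 than with LX-A1656. Kdr averaged 20.3 CPM with LX-A2003 and 5.71 CPM with LX-A1656, a log2 fold change of 1.82 ± 0.202 (adjusted p = 1.48e-07), and Stab2 26.3 and 11.4 CPM in the same order, a log2 fold change of 1.21 (adjusted p = 0.000736). F8, the clotting factor VIII made by liver endothelium and not on the marker list, had a log2 fold change of 1.75 ± 0.381 (adjusted p = 0.0215). Against LX-A3928 the log2 fold changes were -0.05 ± 0.185 for Kdr, 0.27 ± 0.192 for Stab2 and -0.04 ± 0.341 for F8 (adjusted p = 1 each). Of the long genes listed above, Sox5, Fbxl17 and Slc25a21 were called higher with LX-A2003 than with LX-A1656. Their log2 fold changes were 1.57, 1.41 and 1.39 (adjusted p = 0.00566, 0.000115 and 0.0281). Sox5 was lower than with LX-A3928 (log2 fold change -1.18, adjusted p = 0.0486). Lower with LX-A2003 than with LX-A1656 were Bcl6, Arl4d, Tat, Hsph1, Ppard, Dnajb9 and Ddit4, with log2 fold changes of -1.41, -1.36, -1.24, -1.13, -1.06, -0.84 and -0.97 (adjusted p = 0.0355, 0.0049, 0.00508, 0.0276, 0.0378, 0.0441 and 0.0428), and Hspa1b, whose near-identical copy Hspa1a may share its reads, with -1.49 ± 0.354 (adjusted p = 0.0435). Socs2 averaged 5.52 CPM with LX-A2003 and 0.227 CPM with LX-A1656 (log2 fold change 4.62 ± 0.966, adjusted p = 0.0164), levels that rest on few counts.

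The genes called against LX-A3928 included some of the clock, of which Arntl and Per3 were picked with their values in view. Npas2, a partner of Arntl, was higher with LX-A2003 by 2.13 ± 0.339 on the log2 scale (adjusted p = 0.000754), and Arntl by 1.47 (adjusted p = 0.000166). Lower with LX-A2003 were Tef, with a log2 fold change of -1.06 (adjusted p = 0.0486), Per3, with -2.61 (adjusted p = 0.00946), and Usp2, a clock-driven deubiquitinase, with -1.56 ± 0.302 (adjusted p = 0.0092). Nr0b2, the nuclear receptor SHP that represses bile acid synthesis, was higher by 2.26 ± 0.370 (adjusted p = 0.000895), and Angptl8, a feeding-induced inhibitor of lipoprotein lipase complexes, by 1.69 ± 0.290 (adjusted p = 0.0016). Myc and Plk3 were lower, with log2 fold changes of -2.19 ± 0.433 and -1.37 ± 0.299 (adjusted p = 0.0113 and 0.0335). For Dbp the difference was -1.86 ± 0.449 and was not called (adjusted p = 0.0891), with a mean of 20.0 CPM with LX-A2003 and 72.6 CPM with LX-A3928.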

How the data were processed

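Per the labels' protocols, tissue was bead-homogenized in TriPure and sequenced as Ion AmpliSeq mouse transcriptome libraries, in which a designed fragment per gene is amplified, so that a value reports on that fragment. The authors deposited raw counts per gene; aligner, counting tool, build and strand were not given in the sources used here. Reads of overlapping antisense genes and near-identical copies could not be separated.

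All 48 columns were joined to groups by library name. Genes were filtered with filterByExpr, which left 12672 holding at least 99.891% of each library's counts, and TMM-scaled. A robust edgeR 4.0.16 quasi-likelihood model of 12 group means (R 4.3.3, 36 residual degrees of freedom) was tested per comparison, with Benjamini-Hochberg adjustment over all genes tested. SE is the absolute log2 fold change over the square root of F. CPM use TMM factors. On simulated counts for LX-A2003 against PBS at 24 h, 68 of 100 genes changed 2-fold and 98 of 100 changed 4-fold were called, with 8 false among 174 calls (11663 genes tested). The simulated libraries were independent, had the fitted spread and the PBS 24 h means in every group, and left the lowest-expressed genes unchanged. They held no unlike pairs of replicates such as those of LX-A2003, so these rates may not hold for the data.

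Named were Scarb1, the 15 genes at either end of the log2 fold changes among called genes with at least 10 CPM in 1 group and no overlap of libraries, and up to 5 called members with the smallest p of each of 27 pathway and 14 marker lists. Genes outside this rule included Erbb4, Immp2l, Park2, Sorbs2, Fbxl17 and those given as not called. They also included Arntl and Per3 in the comparison with LX-A3928. All of these were picked with their values in view. Some members of the lists are not reported here. The members and lists were chosen with earlier results of these data known. Spans come from GENCODE M21 and promoters from RefSeq. PCR reads are not independent molecules. Alternatives were DESeq2 1.42.0, no filter, library totals, other sets of libraries, a replicate block and leaving out each library.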

Additional observations from a re-analysis of the deposited data

Results flagged for a closer look

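In 5 of 136 groups of 4 libraries tested for the 68 named genes, 1 library stood apart from its group, with a gap to its nearest neighbour that took up most of the group's range (Dixon's test at the 95% level). Chance gives about 1 in 20 such groups. Fgf21 was highest in LX-A2003 replicate 1, at 60.1 CPM (ratio 0.886), and so was Chac1, at 15.1 CPM (0.871), while Tat was lowest in the same library, at 884 CPM (0.852). In PBS livers, Csrnp1 was highest in replicate 4, at 15.3 CPM (0.91), and Zbtb7c lowest in replicate 1, at 60.4 CPM (0.837).

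The effect of LX-A2003 against PBS of the same time differed between 72 h and 24 h in 23 of the 68 named genes, by the edgeR test of that difference, given here as the 72 h minus the 24 h log2 fold change. The test called 2.71% of all genes. The named genes were chosen by their 24 h values and the test uses the same 24 h libraries, so their count and any return towards PBS are shaped by that choice. Further down at 72 h were Scarb1 (-2.22, adjusted p = 5.69e-06) and the long genes Slc25a21 (-3.47, adjusted p = 1.29e-06), Plcb1 (-3.16, adjusted p = 0.000941) and Naaladl2 (-2.39, adjusted p = 0.0057). Hlf (-1.27), Stab2 (-1.07) and Kdr (-0.9) also went further down. Genes that were high at 24 h and less so, or lower, at 72 h were Dbp (-3.4), Cables1 (-2.18), Arrdc3 (-1.51), Klf10 (-1.45), Tcp11l2 (-1.39) and Cpsf4l (-1.34). Genes that were low at 24 h and less so, or higher, at 72 h were Ppard (2.08), Pitx3 (2.03), Hsph1 (1.95), Tat (1.55), Clic3 (1.37), Sdf2l1 (1.2), Ddit4 (1.14), Syvn1 (1.13), Manf (1.06) and Dnajb9 (1.04). Dbp averaged 20.0 CPM at 24 h and 27.3 CPM at 72 h in LX-A2003 livers, and 1.16 CPM at 24 h and 16.5 CPM at 72 h in PBS livers. Ppard averaged 15.2 CPM at 24 h and 19.9 CPM at 72 h in LX-A2003 livers, and 54.8 CPM at 24 h and 16.9 CPM at 72 h in PBS livers.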

How the results depend on the processing

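Scarb1 kept its direction and its call under every alternative run, at -3.72 to -3.38 on the log2 scale. The 265 genes called at 24 h (119 higher, 146 lower) became 404 with DESeq2 (235 lower), 754 with the compared groups alone (326 higher, 428 lower) and 1002 with the 16 libraries of 24 h alone (452 and 550, and 89 higher by at least 1 on the log2 scale). Of the 265, 264 were among the 404, 250 among the 754 and 257 among the 1002. Against the PBS livers of 72 h there were 67 (10 higher, 57 lower, and 5 and 31 by at least 1). Lpin2 reversed there, to -0.06. The cause was not tested.

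Leaving out 1 library gave 135 to 214 genes in all, 51 to 102 higher, 68 to 117 lower, and 33 to 61 higher by at least 1. The same gave 11 to 39 genes against LX-A1656, 6 to 24 against LX-A3928, 222 to 351 for the 72 h minus the 24 h effect and 2 to 33 between PBS times. With 1 library of 24 h left out, genes higher again at 72 h and 168 h ran from 25 to 47 and from 21 to 42. Genes lower again ran from 43 to 68 and from 39 to 65. Genes called again were not counted without a library of 72 h or 168 h.

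With no filter there were 22 genes against LX-A1656 and 216 for the difference between times. DESeq2 gave 89 against LX-A1656, 33 between PBS times, and 118 and 116 lower again at 72 h and 168 h. The compared groups alone gave 154 against LX-A1656, 77 against LX-A3928, 2509 at 72 h, 993 for the difference between times, 136 and 95 higher again and 213 and 186 lower again at 72 h and 168 h. The 16 libraries of 24 h gave 267 against LX-A1656 and 88 against LX-A3928.

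No strong shared deviation was seen between libraries of 1 replicate number. Deviations of LX-A2003 and PBS libraries of 1 number correlated at -0.00782, -0.0799, 0.0979 and -0.0222. Such values cannot show whether the libraries were paired by number. A replicate block gave 237 genes (109 higher, 128 lower), 234 of them among the 265. Under it Scarb1 stood at -3.57, and of the named genes Sdf2l1 (adjusted p = 0.0553) and Id3 (adjusted p = 0.0639) were not called. Depth limits the fold changes of Noct, with 20 counts over the 4 LX-A2003 libraries, and Socs2, with 24 over the 4 PBS libraries. It also limits those of some long genes. Adam12 had 7 counts over the 4 LX-A2003 libraries and 40 over the 4 PBS libraries, and its groups overlapped. Park2 and Erbb4 had 46 and 55 counts over the 4 LX-A2003 libraries.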

Other observations

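Atp6v0d1, a subunit of the lysosomal proton pump and a member of none of the 15 highest or lowest, was at 27.1, 29.0, 0.0903 and 0 CPM in the 4 LX-A2003 livers and at 30.1, 0, 0 and 0 CPM in the 4 PBS livers, so that single libraries of both groups held either a clear level or almost none.

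Replicates 1 and 2 of LX-A2003 differed from replicates 3 and 4 in genes that were not called against PBS. Slc25a30, a mitochondrial carrier, was at 546, 391, 89.4 and 111 CPM in LX-A2003 replicates 1 to 4 and at 188, 241, 161 and 203 CPM in PBS livers. E2f8, a repressor of the cell cycle in polyploid hepatocytes, was at 29.7, 22.2, 3.79 and 2.12 CPM with LX-A2003 and at 10.1, 15.6, 11.4 and 4.07 CPM with PBS. Fkbp5, a target of the glucocorticoid receptor, was at 31.4, 38.4, 9.58 and 15.1 CPM with LX-A2003 and at 11.4, 8.58, 13.4 and 20.6 CPM with PBS. These genes were chosen after their values were seen, and the replicates carry no label that separates them.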
